A study of Mus musculus with 9 samples.

Results

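The genes described here encode the subunits of the 5 complexes of oxidative phosphorylation. They were picked by symbol, from probe sets that carry a single gene symbol: the Nduf genes of complex I without the Ndufaf assembly factors, Sdha to Sdhd, the Uqcr genes, Cox4 to Cox8, and the Atp5 genes. Each gene was read by its brightest probe set, judged by the mean of all 9 arrays. This gave 82 genes of the 18193 on the array: 34 of complex I, 4 of complex II, 8 of complex III, 17 of complex IV, 17 of complex V, and 2 that are related to subunits by sequence, Cox7a2l and Ndufa4l2. Ndufa4 was counted with complex IV. Transcripts came from gut epithelium of untreated mouse pups killed on postnatal day 0, with 3 arrays for each of 3 genotypes. Rescue pups were Tfr1 IEC-KO;ROSA26 Tfr1R654A/+, that is, the knockout with Tfr1 R654A added at ROSA26. Knockout pups were Tfr1 IEC-KO, the knockout of Tfr1 in intestinal epithelial cells. Control pups were Tfr1fl/fl, with floxed Tfr1 alleles, and are called wildtype in the labels. The labels do not name the promoter that drives the deletion, and they leave unsaid if each array was 1 pup or a pool, so p-values measure the spread between arrays alone. Levels are log2 values and differences are log2 differences with the standard error of limma, a linear model fitted gene by gene, from 3 arrays per genotype. A difference is called where limma's p-value, adjusted over all 18193 genes by the method of Benjamini and Hochberg, lies below 0.05.

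Complexes I to IV form the respiratory chain of the inner mitochondrial membrane, and complex V is the ATP synthase that uses the proton gradient the chain builds. Electrons pass through iron-sulfur clusters in complexes I, II and III and through haems in complexes II, III and IV, so the chain is one of the large users of iron in a cell. Tfr1, the product of Tfrc, takes up transferrin-bound iron and delivers it to the pathways that make haem and iron-sulfur clusters. The members were therefore split into those that hold an iron-sulfur cluster or bind haem and those that do not. The 9 iron-bearing members are Ndufs1, Ndufs7, Ndufs8, Ndufv1, Ndufv2, Sdhb, Sdhc, Sdhd and Uqcrfs1. The Cox members hold no iron, because the haems of complex IV sit in a subunit encoded in the mitochondrial genome.

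Tfrc read 10.91, 10.22 and 11.11 on the rescue arrays, 10.76, 11.16 and 9.07 on the arrays labelled knockout, and 10.21, 10.78 and 9.88 on the control arrays. The groups overlap, and the difference of knockout from control was 0.04 ± 0.51 (limma adjusted p = 0.973). The exons removed and the part of the transcript read by the probe set were not analysed here, so this value does not check the deletion. Epithelial markers were bright in all groups, with mean levels of 12.2 to 12.4 in rescue, 12.5 in knockout and 12.1 to 12.2 in control. The mean of 11 fibroblast markers ranged over 7.65 to 8.17 in rescue, 7.48 to 10.9 in knockout and 6.68 to 7.40 in control. Xist read 6.45 to 6.83 on the rescue arrays, 12.02 to 12.75 on the knockout arrays and 12.10 to 12.31 on the control arrays, so that genotype and sex-specific transcripts cannot be told apart in a comparison with rescue. Because the tissue was measured in bulk, fewer cells of a type and less RNA per cell cannot be told apart.

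Arrays labelled knockout were compared with control, a design that asks what changes in gut epithelium with Tfr1 deleted. Of the 82 members 17 fell and 0 rose, a share of 20.7% lower, against 8.77% lower and 5.29% higher among all genes. Complex I held 12 of the 17, complex V and complex III 2 each, complex II 1 and complex IV 0. The median difference of the members was -0.24, against -0.04 for all genes and -0.09 for the 10916 genes outside the dimmest 40%, of which 13.5% were lower. The differences were small and mostly in 1 direction: 75 of 82 members had a difference below 0, against 56.1% of all genes. All 3 knockout arrays lay below all 3 control arrays for 54 members (65.9%), against 19.7% of all genes and 27.6% of genes that are not dim, and no member lay wholly above. At an unadjusted p below 0.05 the fit had 41 members lower and 0 higher, against 17.5% and 12.7% of all genes. The count of 17 rests on individual arrays far more than the median does. Without control array 1 it was 3, without control array 2 or 3 it was 1, without knockout array 1 it was 5, and without knockout array 2, rescue array 1 or rescue array 2 it was 11. With 1 array left out, the number of all genes lower ranged over 568 to 2670 of 18193. Without control array 2 or 3 the share of members lower was therefore below that of all genes. The excess of 20.7% over 8.77% did not hold in those fits. The median of the members stayed between -0.26 and -0.21 with any of the 9 arrays left out.

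**Figure D1:**
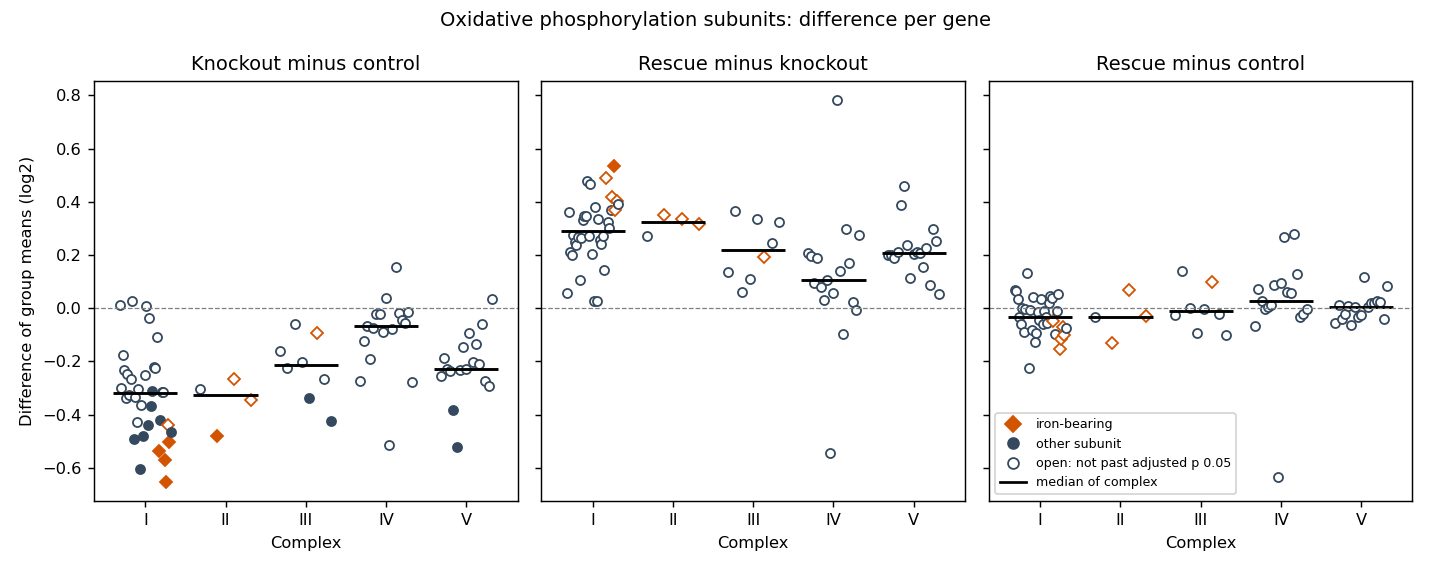
Difference of group means (log2, vertical axis) for each of the 80 genes of complexes I to V (horizontal axis) in the 3 comparisons; diamonds are iron-bearing members, circles other subunits, filled symbols passed limma's adjusted p of 0.05, and bars are medians. In knockout minus control the median was -0.32 in complex I and -0.07 in complex IV, and in rescue minus control every complex had its median between -0.03 and 0.03.

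The median difference between knockout and control was -0.32 in complex I, -0.32 in complex II, -0.21 in complex III, -0.07 in complex IV and -0.23 in complex V. Complex IV had the smallest fall of the 5, and complex I lay below complex V, in all 22 alternative fits for which each complex had a value. These include leaving out each of the 9 arrays. Several of them could not change this order. They leave each gene's difference as it is, as when a rescue array is left out, or shift all genes alike. The difference between complexes was not itself tested. The iron-bearing members had a median of -0.48 with 5 of 9 lower, and the other 73 members a median of -0.23 with 12 lower. Within complex I the 5 iron-bearing members had a median of -0.54 with 4 lower, and the other 29 a median of -0.31 with 8 lower. These 5 are also core subunits of complex I, and Ndufs3, the single measured core subunit without iron, fell by 0.42. Iron and a place in the core therefore cannot be told apart here. Uqcrfs1, also iron-bearing, differed by -0.09 alone. Without control arrays 1, 2 and 3 and knockout array 1, each left out alone, complex I had 1, 1, 1 and 3 lower members and the iron-bearing set 2, 1, 1 and 2. Complex II had 0 without control array 2 or 3 and 4 without knockout array 3. Complex III had 0 without control array 2 or 3 and 1 without any other array except knockout array 3. Complex V had 0 without any control array or knockout array 1, 1 without knockout array 2 or any rescue array, and 3 without knockout array 3, where complex IV had 1.

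The 5 iron-sulfur subunits of complex I line the path of electrons from NADH to ubiquinone. Ndufs8 holds a pair of clusters near the end of that path and fell most. It read 11.89, 11.75 and 12.03 on the rescue arrays, 11.41, 11.46 and 11.19 on the knockout arrays, and 12.04, 12.05 and 11.93 on the control arrays. The knockout arrays were the lowest of all 9, and the rescue arrays overlapped with control. Ndufs8 fell by 0.65 ± 0.11 in knockout (1.57-fold lower, limma adjusted p = 0.00791). Ndufs8 was the single member past the threshold in each of 22 alternative fits, with a highest adjusted p of 0.0388 by limma.

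Ndufs7 carries the last cluster before ubiquinone. It read 11.68, 11.90 and 12.14 in rescue, 11.33, 11.74 and 11.40 in knockout, and 12.20, 11.97 and 12.01 in control. Knockout array 2 lay just above the lowest rescue array but below every control array, and it fell by 0.57 ± 0.15 in knockout (adjusted p = 0.0431, limma; past the threshold in 10 of 22 alternative fits). Ndufs1, the large subunit with several clusters, read 10.73, 10.83 and 10.94 in rescue, 10.10, 10.47 and 10.45 in knockout, and 10.78, 10.98 and 10.87 in control. All knockout arrays stood below both other groups, and the fall was -0.54 ± 0.13 (adjusted p = 0.0261, limma). Ndufv2, of the NADH-oxidising module, read 11.58, 11.74 and 11.84 in rescue, 11.17, 11.47 and 11.31 in knockout, and 11.91, 11.81 and 11.74 in control. Its fall was -0.50 ± 0.11 (adjusted p = 0.0224, limma), again with no overlap. Ndufv1, which binds the flavin and a cluster, missed the threshold. It read 11.38, 11.50 and 11.86 in rescue, 11.06, 11.27 and 11.30 in knockout, and 11.76, 11.67 and 11.52 in control, a difference of -0.44 ± 0.14 (adjusted p = 0.0737, limma). The knockout arrays of Ndufv1 were nonetheless the lowest 3 of the 9.

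**Figure D2:**
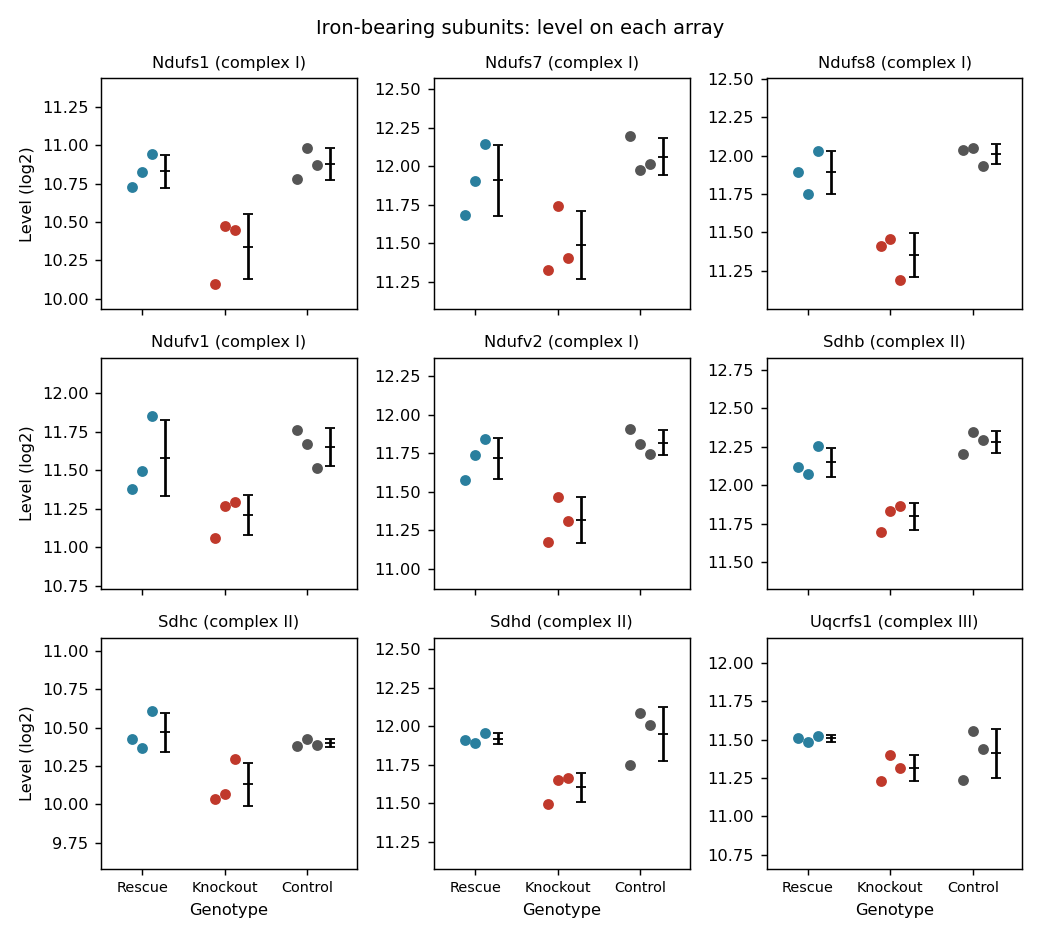
Level (log2, vertical axis) of the 9 iron-bearing members on each array, in panels by gene, with rescue, knockout and control from left to right; points are arrays and bars the mean ± SD of 3 arrays. Ndufs8 lies at 11.19 to 11.46 in knockout and at 11.93 to 12.05 in control, whereas the groups of Uqcrfs1 overlap between knockout and control.

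Of the 29 complex I subunits without iron 8 fell. Ndufs3, the core subunit without a cluster, read 11.41, 11.35 and 11.42 in rescue, 10.99, 11.29 and 10.92 in knockout, and 11.44, 11.57 and 11.45 in control. Its fall was -0.42 ± 0.11 (adjusted p = 0.0417, limma), and its knockout arrays were below all others. The other 28 are accessory subunits, which surround the core and stabilise it. Ndufb10, an accessory subunit of the membrane arm, read 10.61, 10.71 and 10.79 in rescue, 9.95, 10.48 and 10.25 in knockout, and 10.86, 10.87 and 10.77 in control. It had the largest fall of a subunit without iron, -0.61 ± 0.14 (1.52-fold lower, adjusted p = 0.0224, limma), with no overlap between knockout and either other group. Ndufa8, another accessory subunit, read 11.36, 11.65 and 11.58 in rescue, 11.10, 11.52 and 11.19 in knockout, and 11.67, 11.90 and 11.70 in control. Its rescue arrays lay between the groups and overlapped with knockout, and the fall in knockout was -0.49 ± 0.14 (adjusted p = 0.0488, limma), which passed in 6 of 22 alternative fits. The other 5 accessory subunits that fell were Ndufb2 (-0.48), Ndufb5 (-0.44), Ndufb7 (-0.37) and Ndufb8 (-0.31) of the membrane arm, and Ndufv3 (-0.47) of the NADH-oxidising module, with limma adjusted p between 0.0191 and 0.0465. Of these, Ndufb5 and Ndufv3 each passed in 16 of 22 alternative fits and Ndufb2 in 8. For Ndufb7, Ndufb8 and Ndufs3 the passes were not counted. In a fit over all probe sets, Ndufb8 and Ndufs3 missed the threshold (adjusted p = 0.0532 and 0.0515, limma). Ndufab1, the mitochondrial acyl carrier protein that complex I also holds, differed by -0.43 ± 0.13 and missed the threshold (adjusted p = 0.0589, limma). In the fit over all probe sets, a faint set of Ndufab1 (mean level 5.93) fell by 0.94 ± 0.15 (adjusted p = 0.008, limma). A dim one (4.94) fell by 1.15 ± 0.28 (adjusted p = 0.0361, limma), and its other single-symbol sets did not pass. The X-linked members were unlike each other: Ndufb11 read 12.45, 12.20 and 12.38 in rescue, 12.21, 12.13 and 11.88 in knockout, and 12.38, 12.53 and 12.40 in control, and Ndufa1 differed by 0.01 ± 0.09. Knockout Ndufb11 lay below control without overlap (-0.36 ± 0.12, adjusted p = 0.0766, limma). Ndufa7 had the highest difference of complex I, at 0.03 ± 0.13. The remaining accessory subunits lay between -0.34 and 0.01, and none of them passed.

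Complex II oxidises succinate and hands the electrons to ubiquinone. Sdhb, its iron-sulfur subunit, read 12.12, 12.08 and 12.26 in rescue, 11.70, 11.83 and 11.86 in knockout, and 12.20, 12.34 and 12.29 in control. The knockout arrays were below all others, and Sdhb fell by 0.48 ± 0.10 (1.39-fold lower, adjusted p = 0.0142, limma), the single member of complex II past the threshold. Sdhd and Sdhc are the membrane anchors that hold haem b between them. Sdhd read 11.91, 11.89 and 11.96 in rescue, 11.50, 11.65 and 11.67 in knockout, and 11.75, 12.09 and 12.01 in control, a difference of -0.34 ± 0.11 between knockout and control (adjusted p = 0.0722, limma). Sdhc read 10.43, 10.37 and 10.61 in rescue, 10.04, 10.07 and 10.29 in knockout, and 10.38, 10.43 and 10.39 in control, a difference of -0.27 ± 0.11 (adjusted p = 0.132, limma). In both anchors the knockout arrays were the lowest 3 of the 9. Sdha, the flavin subunit, differed by -0.30 ± 0.12 (adjusted p = 0.139, limma), and knockout array 3 reached into the control range.

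Complex III passes electrons from ubiquinol to cytochrome c. Uqcrq, a small subunit of this complex, read 12.24, 12.15 and 12.26 in rescue, 11.82, 11.90 and 11.95 in knockout, and 12.29, 12.33 and 12.33 in control. The 3 groups were tight, knockout lay below the others, and Uqcrq fell by 0.42 ± 0.08 (adjusted p = 0.0139, limma). Uqcrc2, a core protein on the matrix side, read 12.21, 12.20 and 12.25 in rescue, 11.77, 11.95 and 11.94 in knockout, and 12.20, 12.31 and 12.16 in control. Uqcrc2 fell by 0.34 ± 0.09 (adjusted p = 0.0427, limma) and passed in 7 of 22 alternative fits. The Rieske iron-sulfur protein Uqcrfs1 read 11.51, 11.49 and 11.53 in rescue, 11.23, 11.40 and 11.32 in knockout, and 11.24, 11.56 and 11.44 in control. Its knockout and control arrays overlapped, and the difference was -0.09 ± 0.10 (adjusted p = 0.618, limma). The other 5 members lay between -0.27 (Uqcrh) and -0.06 (Uqcrb).

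Complex IV reduces oxygen, and its nuclear subunits surround a core encoded in the mitochondrial genome. None of its 17 members passed limma's test. At an unadjusted p below 0.05 there were 3 of 17 lower, a share near the 17.5% of all genes. By other measures the members leaned lower. All knockout arrays lay below all control arrays for 6 of 17 (35.3%), against 19.7% of all genes and 27.6% of genes that are not dim. A difference below 0 was seen in 15 of 17, against 56.1% of all genes. Cox4i1, the common form of subunit 4, read 13.11, 13.04 and 13.06 in rescue, 12.91, 12.95 and 12.72 in knockout, and 13.07, 13.18 and 13.15 in control. Its knockout arrays were the lowest, with a difference of -0.27 ± 0.09 (adjusted p = 0.0868, limma). Ndufa4, a subunit once assigned to complex I, differed by -0.28 ± 0.11 (adjusted p = 0.12, limma). Cox6a1 read 14.07, 14.03 and 14.10 in rescue, 13.94, 14.01 and 14.02 in knockout, and 14.02, 14.12 and 14.05 in control. This subunit differed by -0.07 ± 0.08 between knockout and control, although its 3 knockout arrays were the lowest. Some members of complex IV read close to the top of the scale: 6 of its 17 members had a control mean above 13, against 3 of 17 in complex V, 1 of 8 in complex III and 0 in complexes I and II, and the highest value of any probe set was 14.6. The part of this brightness in the small differences was not tested.

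Several complex IV subunits have tissue isoforms. Cox7a1, the form best known from heart and skeletal muscle, read 8.18, 7.66 and 7.85 in rescue, 7.15, 6.80 and 7.40 in knockout, and 7.50, 7.69 and 7.70 in control, with knockout below both other groups. The difference between knockout and control was -0.51 ± 0.18 (adjusted p = 0.0926, limma). Its widespread counterpart Cox7a2 differed by -0.08 ± 0.08, and Cox7a2l, a factor of supercomplex assembly, by -0.42 ± 0.17 (adjusted p = 0.143, limma). Cox6b2, known from testis, read 7.40, 6.72 and 6.73 in rescue, 7.71, 7.52 and 7.24 in knockout, and 7.84, 7.13 and 7.77 in control. Its spread within groups was wide, and the difference between knockout and control was -0.09 ± 0.25, against -0.02 ± 0.09 for Cox6b1. Cox6a2, Cox8a and Cox8c lay between -0.04 and -0.01. Cox4i2, Cox8b and Cox7b2 are in the dimmest 40% of genes, as is the probe set of Ndufb4 in complex I, where background flattens differences: they differed by -0.12, -0.06, 0.15 and 0.01. Ndufa4l2, a relative of Ndufa4 induced in low oxygen, differed by 0.10 ± 0.09, Cox6c by 0.04 ± 0.10 and Cox7c by -0.02 ± 0.28, and none of these passed.

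Complex V has a catalytic F1 head, a ring of c subunits that turns in the membrane, and a peripheral stalk that holds the head in place. It holds no iron. Atp5g1 is 1 of 3 genes that encode the same mature c subunit. It read 11.29, 11.32 and 11.54 in rescue, 10.74, 11.06 and 10.98 in knockout, and 11.43, 11.53 and 11.38 in control. The knockout arrays lay below the rest, and Atp5g1 fell by 0.52 ± 0.12 (1.44-fold lower, adjusted p = 0.0222, limma). The other c subunit genes, Atp5g2 and Atp5g3, differed by -0.23 ± 0.16 and -0.15 ± 0.09 and did not pass. Atp5e, the epsilon subunit of the head, read 11.49, 11.29 and 11.51 in rescue, 11.12, 11.08 and 10.91 in knockout, and 11.35, 11.52 and 11.38 in control. Its difference of -0.38 ± 0.11 (adjusted p = 0.0464, limma) was close to the threshold and passed it in 5 of 21 alternative fits. Atp5o and Atp5h, of the peripheral stalk, differed by -0.29 ± 0.10 and -0.23 ± 0.09, and the F1 subunits Atp5a1, Atp5b, Atp5c1 and Atp5d lay between -0.26 and -0.19. Atp5pb, the b subunit of the stalk, was the one member of complex V with a difference above 0, at 0.03 ± 0.09. Of the 17 members 11 (64.7%) had all knockout arrays below all control arrays, against 19.7% of all genes and 27.6% of genes that are not dim.

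**Figure D3:**
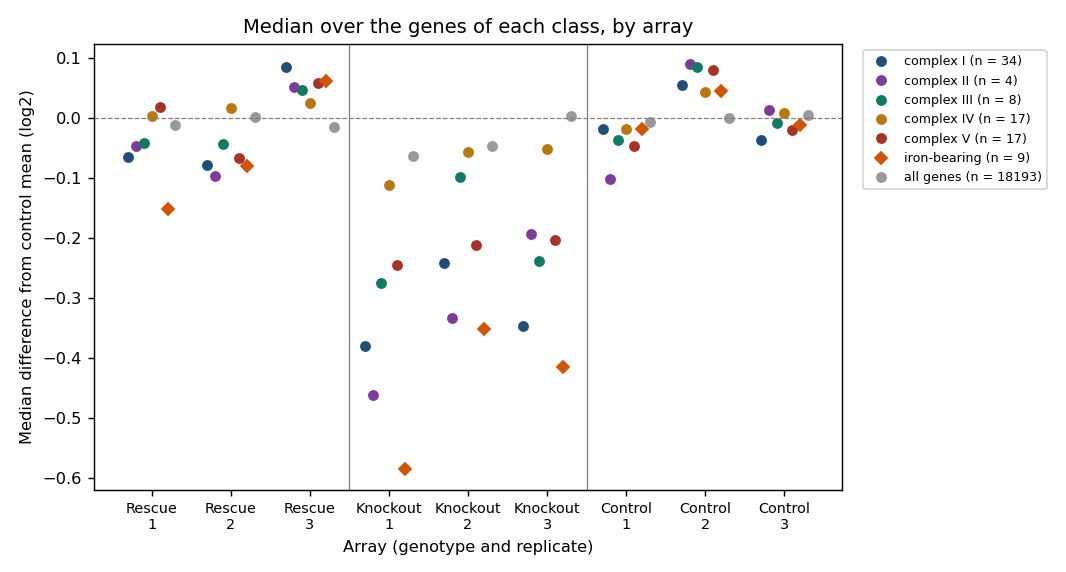
Median difference from the control mean (log2, vertical axis) over the genes of each complex, the iron-bearing members and all genes, on each of the 9 arrays (horizontal axis). On the knockout arrays the iron-bearing median lies at -0.59, -0.35 and -0.41 and complex IV at -0.11, -0.06 and -0.05, and on the rescue arrays all classes lie between -0.15 and 0.08.

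The fall was seen on each knockout array. Against the control mean, the median member lay at -0.03, -0.06 and 0.06 on rescue arrays 1, 2 and 3, at -0.29, -0.20 and -0.23 on knockout arrays 1, 2 and 3, and at -0.03, 0.06 and -0.02 on control arrays 1, 2 and 3. Of the 82 members, 30, 39 and 10 lay below the lowest control array on rescue arrays 1, 2 and 3, and 15, 11 and 33 above the highest. On knockout arrays 1, 2 and 3, 68, 62 and 65 lay below and 3, 2 and 10 above. The same counts over all genes were not taken, so these have no background beside them. Markers of other cell types differed between arrays too. Fibroblast markers had a median of 1.20, 0.51 and 0.52 over the control mean on the rescue arrays, and of 4.11, 3.27 and 0.22 on the knockout arrays. Smooth muscle markers had a median of 3.71, 2.30 and 0.16 on the knockout arrays. On knockout arrays 1, 2 and 3 the median was 1.88, 1.18 and 0.24 for endothelial markers and 1.28, 0.92 and 0.07 for leukocyte markers. Markers of neurons and glia also had their highest median on knockout array 1, with 0.74 and 0.18 on knockout arrays 2 and 3. Against 5.29% of all genes higher and 8.77% lower, 3 of 11 fibroblast markers (3 of the 11 dim in control) rose in knockout and 0 fell, and 2 of 7 endothelial markers rose and 0 fell. Of 8 smooth muscle markers and 6 of neurons and glia, none passed limma's test, with 6 and 3 higher at an unadjusted p below 0.05. Of 8 leukocyte markers 1 rose and 2 fell, of 8 epithelial markers 4 rose and 1 fell, and of 9 enterocyte markers 0 rose and 1 fell. The part of other cell types in the members' differences on knockout arrays 1 and 2 was not tested. On knockout array 3, where fibroblast and smooth muscle markers were close to control, complex I lay at -0.35 and the iron-bearing members at -0.41. With knockout array 3 as the sole knockout array, a fit chosen after the data were seen, the members had a median of -0.23, which rests on that array. With the fibroblast level as a covariate, 7 members were lower with a median of -0.25. Of the 7, 4 were in complex I, 1 in complex IV and 2 in complex V, and 1 was iron-bearing. The share of all genes lower in the covariate fit is not given here, so 7 of 82 is not shown to exceed it.

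**Figure D4:**
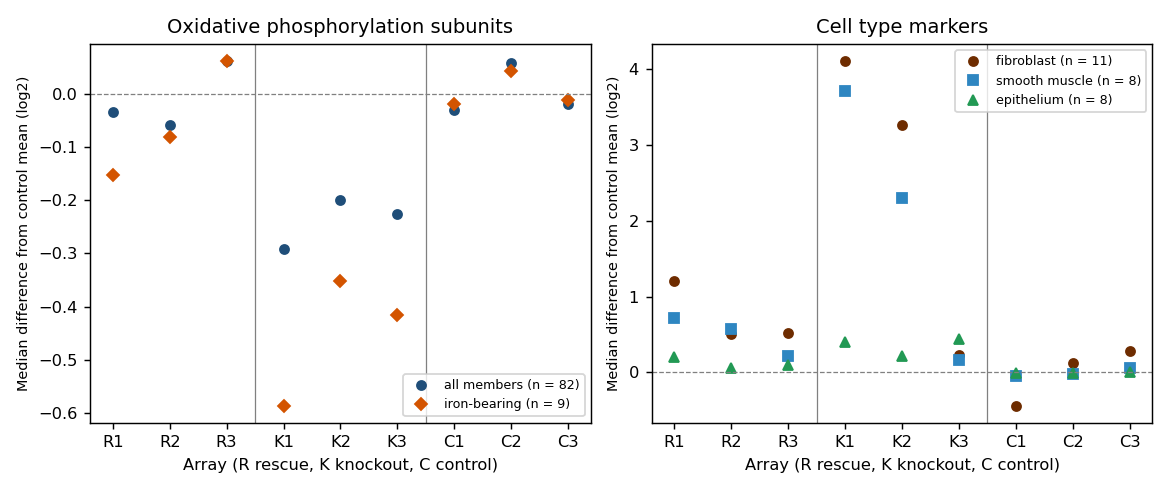
Median difference from the control mean (log2, vertical axes) on each array (R rescue, K knockout, C control), for the members at left and for markers of fibroblasts, smooth muscle and epithelium at right. The members are lowest on all 3 knockout arrays, whereas the fibroblast markers are high on knockout arrays 1 and 2 and at 0.22 on knockout array 3.

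Rescue was compared with knockout to see which transcripts return when a Tfr1 with the R654A change is added to the knockout. Of the 82 members 1 rose and 0 fell, against 1.23% higher and 1.08% lower among all genes. The gene was Ndufs8, with a rescue level above knockout by 0.54 ± 0.11 (adjusted p = 0.0496, limma). This call was lost without each of the 9 arrays in turn except knockout array 3, where 8 members were higher. At an unadjusted p below 0.05 the fit had 40 members higher and 0 lower, against 9.98% and 8.91% of all genes. The median was 0.24 over the members, against 0.04 over all genes and 0.08 over genes that are not dim, and 78 of 82 differences lay above 0, against 57.1% of all genes. All rescue arrays lay above all knockout arrays for 46 members (56.1%), against 10.6% of all genes. This comparison shares its knockout arrays with the one above. By complex its median was 0.29 in complex I, 0.33 in complex II, 0.22 in complex III, 0.11 in complex IV and 0.21 in complex V.

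Beyond Ndufs8, the largest rises were those of Cox7a1 (0.78 ± 0.18, adjusted p = 0.0657), Ndufs1 (0.49 ± 0.13, adjusted p = 0.0895), Ndufb10 (0.48 ± 0.14, adjusted p = 0.118) and Ndufb2 (0.47 ± 0.13, adjusted p = 0.118), all by limma. None of these 4 passed, and in each of them every rescue array lay above every knockout array. Among the iron-bearing members of the other complexes, Sdhb differed by 0.35 ± 0.10 (adjusted p = 0.104, limma) and Uqcrfs1 by 0.19 ± 0.10 (adjusted p = 0.362, limma). Cox6b2 had the lowest difference, at -0.54 ± 0.25 (adjusted p = 0.282, limma), followed by Cox7b2 (-0.10), Ndufa4l2 (-0.04) and Cox8c (-0.01). The 17 members that fell in knockout had a median of 0.39 in rescue minus knockout and of -0.07 in rescue minus control, values that share arrays with the comparison that picked them. Rescue and knockout arrays of Ndufs7 and Ndufa8, both among the 17, overlapped.

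**Figure D5:**
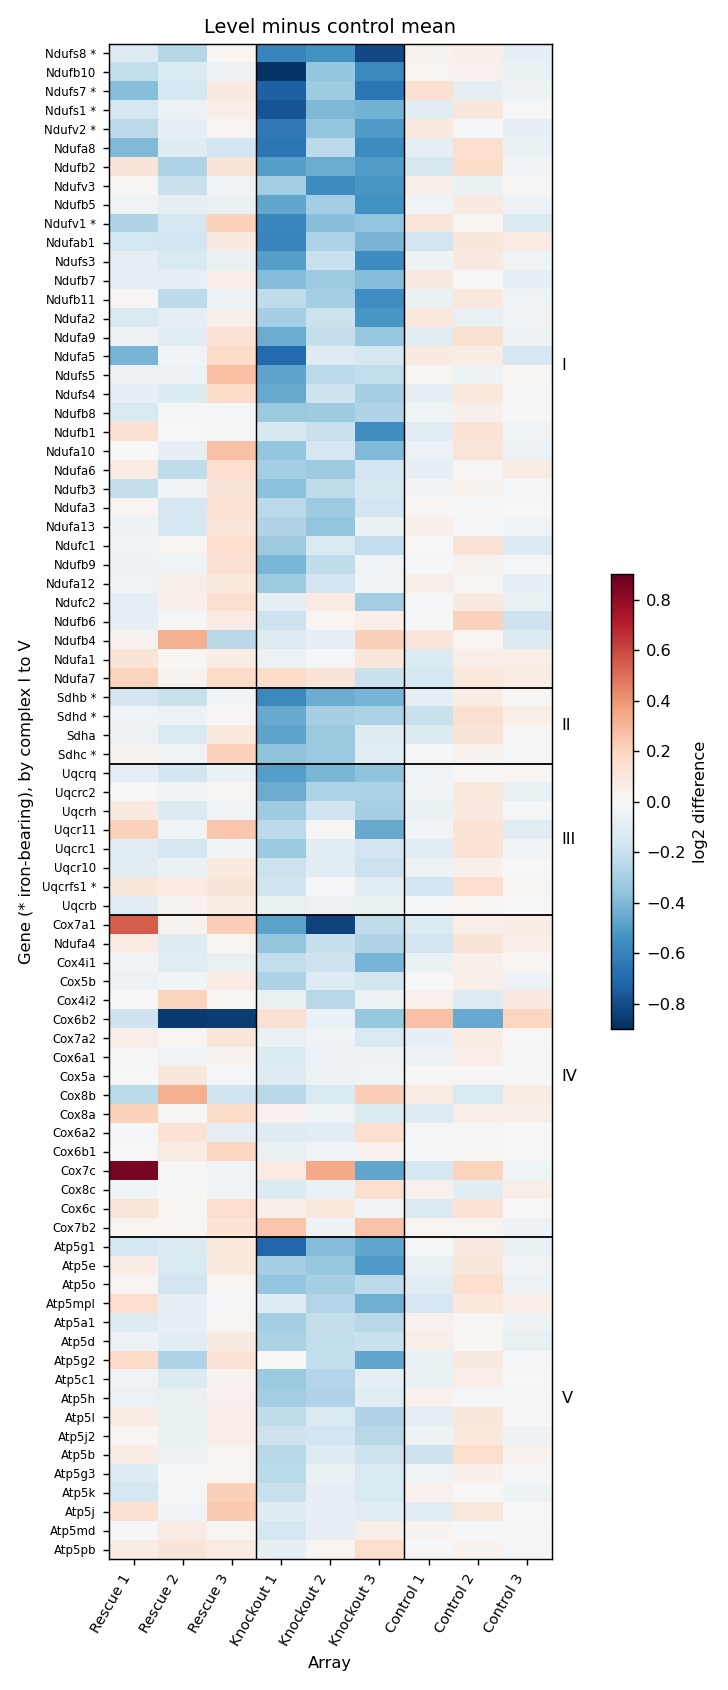
Level minus control mean (log2, colour scale from blue, lower, to red, higher) for the genes of complexes I to V (rows, grouped by complex and ordered by knockout minus control, iron-bearing members starred) on the 3 rescue, 3 knockout and 3 control arrays (columns). The blue block of knockout columns is deepest at the top of complex I, where Ndufs8 averages -0.65, and fades in complex IV.

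In the comparison of rescue with control, limma called 0 of 82 members, against 0.126% of all genes, and 1 member had an unadjusted p below 0.05, against 6.62% of all genes. That gene was Cox6b2, lower in rescue by -0.63 ± 0.25 (adjusted p = 0.658, limma). The median was -0.003 over the members, and 44 of 82 lay below 0, against 52.4% of all genes. Rescue arrays lay wholly below control for 3 members, Ndufa8, Ndufs3 and Uqcrq, and wholly above for 1, Atp5pb, against 9.9% and 6.74% of all genes. The standard error sets what could have been seen: Ndufs8 differed by -0.12 ± 0.11, Ndufs7 by -0.15 ± 0.15, Sdhb by -0.13 ± 0.10, Ndufb10 by -0.13 ± 0.14 and Ndufa8 by -0.23 ± 0.14. Differences of that size in single genes were not detectable with 3 arrays per group. The highest differences were those of Cox7c (0.28 ± 0.28), Cox7a1 (0.27 ± 0.18), Uqcr11 (0.14 ± 0.14), Ndufa7 (0.13 ± 0.13) and Cox8a (0.13 ± 0.10).

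Most members were read by more than 1 probe set, which gives a second reading of the same RNA. The 82 members had 169 single-symbol probe sets, and 49 had more than 1. Of the 157 sets that are not dim, 147 had a knockout level below control. A fit over all probe sets called 21 of the 169 lower and 0 higher. The same counts over all probe sets were not taken, so these have no background of their own. In the fit by gene, 56.1% of all genes had a difference below 0. There 8.77% of all genes were lower, and 13.5% of genes that are not dim. Ndufs8 was read by 6 sets, with differences of -0.86 to -0.28, and 5 of them passed in that fit. Ndufs7 had a second set at -0.61 ± 0.13 (adjusted p = 0.0245, limma over all probe sets), whereas its brightest set missed the threshold in that fit (adjusted p = 0.0525, limma). Ndufv2 had others at -0.38 and -0.35 that did not pass. Uqcrq had others with low mean levels of 6.02 and 6.14, at -0.23 and -0.13, that did not pass. Sets with more than 1 symbol were left out of the members. They include the bright sets shared by Ndufb4 and its near-identical copies, which fell by 0.49 ± 0.10 and 0.48 ± 0.11 (adjusted p = 0.0212 and 0.0276), unlike the dim single-symbol set of Ndufb4. A shared set of Ndufab1 and its pseudogene fell by 0.49 ± 0.10 (adjusted p = 0.0169), and those of Ndufs6 and Ndufa11 with their copies differed by -0.36 ± 0.10 (adjusted p = 0.0612) and -0.27 ± 0.09 (adjusted p = 0.11), all in limma's fit over all probe sets. The reads of such copies cannot be assigned to a gene. Probe sets of the same gene lay on both sides of 0 for 6 of 47 members with more than 1 set that is not dim, and in Ndufs4 they ranged over -0.47 to 0.67.

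Assembly factors help build the complexes but are not part of the finished enzymes. Of 15 complex I assembly factors 6 fell in knockout and 0 rose, with a median of -0.55, against 8.77% of all genes lower. Ndufaf7, an assembly factor in the matrix, read 7.48, 7.60 and 7.72 in rescue, 7.01, 7.32 and 6.88 in knockout, and 7.73, 7.98 and 7.97 in control, a difference of -0.82 ± 0.14 (adjusted p = 0.00715, limma). Ecsit fell by 0.78 ± 0.19 and Ndufaf6 by 0.56 ± 0.15. Of 18 complex IV assembly factors 6 fell and 0 rose, with a median of -0.32, while none of the complex IV subunits passed. Coa7 read 9.26, 9.35 and 9.26 in rescue, 8.09, 8.89 and 8.59 in knockout, and 9.44, 9.44 and 9.38 in control, a difference of -0.90 ± 0.18 (adjusted p = 0.0143, limma). Cox15, which makes haem a, fell by 0.47 ± 0.11 (adjusted p = 0.0235), and rose in rescue against knockout by 0.51 (adjusted p = 0.0491, limma). Lrpprc, which stabilises mitochondrial messenger RNA, fell by 0.91 ± 0.22 (adjusted p = 0.0282, limma).

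Fewer genes were measured of the other assembly factors. Of 4 complex II factors 2 fell, Sdhaf4 by 0.67 ± 0.13 and Sdhaf2 by 0.52 ± 0.13, while Sdhaf3 (-0.77 ± 0.23) did not pass. Of 6 complex III factors 2 fell, Uqcc1 by 0.69 ± 0.17 and Uqcc3 by 0.38 ± 0.09, while Bcs1l (-0.69 ± 0.22), which inserts the Rieske protein, did not pass. Of 4 complex V factors and inhibitors 1 fell: Atpaf2, an F1 assembly factor, read 8.83, 8.99 and 8.84 in rescue, 7.89, 8.23 and 8.34 in knockout, and 8.89, 9.29 and 9.35 in control. Its fall was -1.02 ± 0.16 (adjusted p = 0.00557, limma), and the inhibitor Atpif1 (-0.37 ± 0.11) and Tmem70 (-0.55 ± 0.18) did not pass. Of 17 genes of the outer membrane and protein import 3 (17.6%) fell, Timm17b by 0.55 ± 0.12, Timm9 by 1.01 ± 0.25 and Timm8b by 0.50 ± 0.13. Of 16 regulators of mitochondrial genes 2 (12.5%) fell, a share near the 13.5% of genes that are not dim: Polrmt, the mitochondrial RNA polymerase, by 0.79 ± 0.18, and Esrra, a nuclear receptor that acts on respiratory genes, by 0.76 ± 0.18. None of the genes in these lists rose in knockout, and none of them was called between rescue and control. Of cytochromes c and c1, Cyc1, a haem protein of complex III, differed by -0.47 ± 0.15 (adjusted p = 0.0672, limma), Cycs by 0.08 ± 0.12 and Cyct by -0.03 ± 0.11. ND5, a complex I subunit of the mitochondrial genome and the single such subunit measured, read 13.30, 13.45 and 13.40 in rescue, 13.36, 13.27 and 13.55 in knockout, and 13.28, 13.17 and 13.39 in control. Its groups overlapped, with a difference of 0.11 ± 0.11 between knockout and control (adjusted p = 0.543, limma).

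Since many members moved a little in the same direction, their promoters were searched for motifs of factors known to act on nuclear respiratory genes. RefSeq promoters of build GRCm38.p6, from 250 bases before to 50 after the annotated start, were matched for 67 of the 82 members. The NRF1 motif, GCGCA and GCGC with any base between them, was found on either strand in 22.4% of member promoters and in 5.19% of 27025 genes. The letters CCGGAAG (ETS factors such as GABPA) were found in 25.4% and 9.93%, and AANATGGCG (YY1) in 13.4% and 2.76%. The letters of the 3 motifs do not contain each other, and at least 1 of them was found in 53.7% of member promoters and 15.9% of all genes. Of the matched members that fell in knockout 7 of 14 (50%) held a motif, against 29 of 53 (54.7%) of the other members. By motif the shares were 7.14% against 26.4% for NRF1 (1 of 14 and 14 of 53), 35.7% against 22.6% for ETS and 7.14% against 15.1% for YY1. A match is a description of the letters and not a measured site. The 200 bases before the start are shown 5′ to 3′ for 4 members that fell and 2 that did not pass, chosen after their values were seen because they hold motifs upstream of the start; capitals mark NRF1 and ETS motifs on either strand, where CTTCCGG is the ETS motif read on the opposite strand.
Ndufa8: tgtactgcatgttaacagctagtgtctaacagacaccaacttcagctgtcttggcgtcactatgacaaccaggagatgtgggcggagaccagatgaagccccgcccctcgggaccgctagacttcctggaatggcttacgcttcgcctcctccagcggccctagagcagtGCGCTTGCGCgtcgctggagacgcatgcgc
Ndufs3: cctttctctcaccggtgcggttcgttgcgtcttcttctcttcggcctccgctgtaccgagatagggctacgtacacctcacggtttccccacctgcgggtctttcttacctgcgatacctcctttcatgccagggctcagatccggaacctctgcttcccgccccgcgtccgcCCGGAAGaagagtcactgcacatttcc
Ndufb7: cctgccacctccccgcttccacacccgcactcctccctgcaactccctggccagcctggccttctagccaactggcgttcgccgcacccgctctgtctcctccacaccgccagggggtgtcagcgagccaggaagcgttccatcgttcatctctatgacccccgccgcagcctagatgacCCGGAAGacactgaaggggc
Atp5e: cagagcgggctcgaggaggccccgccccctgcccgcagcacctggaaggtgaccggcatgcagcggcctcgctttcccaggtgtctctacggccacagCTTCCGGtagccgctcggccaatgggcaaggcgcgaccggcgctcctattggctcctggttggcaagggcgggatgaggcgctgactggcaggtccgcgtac
Sdhd: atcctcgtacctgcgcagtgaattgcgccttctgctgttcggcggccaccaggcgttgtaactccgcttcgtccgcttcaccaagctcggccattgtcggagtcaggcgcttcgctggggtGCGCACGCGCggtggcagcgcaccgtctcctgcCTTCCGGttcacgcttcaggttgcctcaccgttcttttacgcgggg
Cox6a1: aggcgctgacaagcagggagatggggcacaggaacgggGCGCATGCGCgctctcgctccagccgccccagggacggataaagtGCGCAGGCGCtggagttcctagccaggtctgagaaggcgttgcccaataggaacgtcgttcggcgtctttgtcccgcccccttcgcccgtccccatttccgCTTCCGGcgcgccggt
Their positions on GRCm38.p6 are chr2:36049339-36049538 on the minus strand for Ndufa8, chr2:90904722-90904921 on the minus strand for Ndufs3, chr8:83566558-83566757 on the plus strand for Ndufb7, chr2:174464102-174464301 on the minus strand for Atp5e, chr9:50603850-50604049 on the minus strand for Sdhd and chr5:115348959-115349158 on the minus strand for Cox6a1. Ndufa8 holds an NRF1 motif and Ndufs3, Ndufb7 and Atp5e an ETS motif, whereas Sdhd (-0.34) holds both kinds and Cox6a1 (-0.07) an ETS motif with 2 NRF1 motifs.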

How the data were processed

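The authors deposited log2 values, 1 per probe set and array, made with RMA and Partek 6.5 per the submitters' processing notes. The part each tool played is not given in the sources used here. Cells were released in 2 mM EDTA for 30 min and passed a 70 µm mesh, per the labels' protocols, with no sort named. The 45101 probe sets were used as deposited, and symbols came from the platform annotation. Of these, 34945 carry 1 symbol, and each of 18193 genes was read by its brightest set.

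Means of the 3 genotypes were fitted on the 9 arrays by limma 3.58.1 in R 4.3.3 (lmFit, eBayes, two-sided, Benjamini-Hochberg over all genes, threshold 0.05), tested on simulated data; the R package data.table (version 1.17.8) read the files. Precision is set by the number of arrays: the median standard error was 0.11 for a member and 0.15 for all genes. Dim means a mean level below 6.25, the dimmest 40% of genes. The smallest p that a permutation of 3 against 3 arrays allows is 0.1, so single genes were not tested that way.

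The members, lists and tests were chosen with earlier results of these data known. Genes were named by rule: the iron-bearing members, up to 5 members per complex with the smallest p in knockout minus control, the 5 largest rises and falls per comparison, isoform pairs, X-linked members, called members in the rescue comparisons, and 3 genes per related list. Ndufs3, Ndufb7, Ndufb8, Ndufab1, ND5 and other members beyond that rule were added after their values were seen. Alternatives changed the probe set, scaling, fit, filter, arrays and covariates. Cox7b has no single-symbol probe set here and was not analysed.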

Additional observations from a re-analysis of the deposited data

How the results depend on the processing

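The median difference between knockout and control kept its sign in all members, each complex and the iron-bearing set under the alternatives run. It lay between -0.32 and -0.20 over all members, between -0.40 and -0.28 in complex I and between -0.15 and -0.04 in complex IV. Some alternatives, such as leaving out a rescue array, do not change a gene's difference between knockout and control. The number of members lower in knockout, 17 as reported, was 10 in a fit over all probe sets, 9 after a further quantile normalization, 33 with array quality weights, 6 with only the 2 groups compared and 7 with the fibroblast level as a covariate. With the replicate number as a block it was 10. With 1 array left out it ranged over 1 to 19, where the number of all genes lower ranged over 568 to 2670. For the other alternatives the number of all genes called is not given here. Their counts therefore do not show whether the members exceed all genes. The number higher in rescue than in knockout, 1 as reported, was 0 in the fit over all probe sets, after quantile normalization and with a trended robust prior. It was also 0 with only 2 groups and with the block, 7 with array weights and 3 with the covariate. With 1 array left out it ranged over 0 to 8. No share of all genes is given beside these counts. Median-centring the arrays, which moved the median of all genes to -0.12, gave medians in knockout minus control of -0.32 over all members, -0.40 in complex I, -0.15 in complex IV and -0.31 in complex V, and 0.17 for complex IV in rescue minus knockout. The covariate moved complex IV to 0.065 in rescue minus control. The cause was not tested. Same-numbered arrays correlated between -0.22 and 0.40 in their deviations from the group means, not above 0.1 in every pair. Pairing by number was therefore not assumed. Deviations of 3 arrays from their own mean depend on each other, so these correlations cannot exclude a pairing. A wider iron-bearing set gave no value and was not run.

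Limits: with 3 arrays per group and a median standard error of 0.11, differences near the members' median of -0.24 are mostly below what a test over all genes can call. In simulated data with 50 genes changed by 0.25 in knockout minus control, 0 were called, and 9 of 50 at 0.5, over 18193 genes. That simulation changed few genes, drawn from all genes, whereas 8.77% of genes fell and 5.29% rose in the data. Its adjusted threshold was therefore stricter, and it understates what could be called among the members. Ndufb8, for example, was called at -0.31. Of the complex IV members, 6 of 17 read near the top of the scale. Rescue arrays differ from the others in sex-specific transcripts, and the knockout arrays in markers of fibroblasts and smooth muscle.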
